A study of Mus musculus with 10 samples.

Results

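The genes described here are 42 members of the TGF-beta and BMP signalling pathways, chosen by name from the 37882 genes of the count table: ligands, latent binding proteins, receptors, Smads, inhibitors, co-repressors and common target genes. The list was drawn up with earlier results of these data known. The series measured poly-A RNA in 10 tumour libraries. All tumours were grown orthotopically, in the mammary gland, from the mouse mammary tumour line MCa-M3C in FVB/N hosts, and were treated from a size of about 100 mm3. The control group (replicates 1 to 5) received PBS intravenously once a day for 6 days, and the TMA-ARB group (replicates 6 to 10) received TMA-ARB by the same route and schedule at 40 mg/kg of valsartan. TMA-ARB is, by the series' title, an angiotensin blocker activated in the tumour microenvironment, and valsartan blocks the type 1 angiotensin II receptor. All tumours come from a single cell line, and the sources used here give no host genotype beyond the strain, no age and no sex. Whether the libraries come from separate animals is not stated in the labels, and the p-values therefore cover only the variation among these 10 libraries, which may be technical.

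TGF-beta ligands are secreted in a latent complex bound to LTBP proteins in the extracellular matrix, and once released they bind a type II receptor that phosphorylates a type I receptor. The TGF-beta and activin receptors pass the signal to Smad2 and Smad3, and the BMP receptors to Smad1 and Smad5; both branches use Smad4 to enter the nucleus and regulate genes, among them feedback inhibitors of the same pathway. In tumours the TGF-beta branch is known for driving fibroblasts to make matrix and for restraining T cells, and angiotensin II is known to raise TGF-beta1 in fibroblasts.

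Library totals ran from 12742953 to 16884621 estimated counts, and levels are given as CPM (counts scaled to a common library size) with the TMM-scaled library size. The share of counts from the 37 mitochondrially encoded genes averaged 4.19% ± 2.21 in the 5 controls and 10.5% ± 9.12 in the 5 treated libraries (SD; two-sided exact permutation p = 0.143), and TMA-ARB replicates 8, 9 and 10 had the 3 highest shares, at 10.5%, 25.0% and 11.7%. The tumour cell label was checked with 10 epithelial markers. Their summed level was 84.1 to 159 CPM in controls and 107 to 245 CPM under TMA-ARB; none was at 0 in every library, but 5 were at 0 in some libraries and only 6 passed the low-count filter, so the epithelial label rests mainly on Krt18 (62.1 to 143 CPM in controls). Epcam was at 0.910 to 3.07 CPM and Cdh1 at 3.76 to 10.1 CPM in controls. In bulk tumour RNA, fewer cells of a type and less RNA per cell cannot be told apart.

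The DNA just upstream of 4 members is shown because Ltbp3, Smad3 and Msx1 are the 3 members whose control and TMA-ARB libraries did not overlap, and Tgfb1 is the ligand that gives the pathway its name. Each line holds the 250 bases before the RefSeq start site on the gene's own strand, 5′ to 3′, from build GRCm38.p6: Tgfb1 from chr7:25686752-25687001 (plus strand), Ltbp3 from chr19:5740650-5740899 (plus), Smad3 from chr9:63757995-63758244 (minus) and Msx1 from chr5:37824586-37824835 (minus). No base of these windows lies in an annotated exon. Capitals mark GTCT or its reverse complement AGAC, the core letters of the Smad-binding element, and GGCGCC, the letters of a GC-rich element bound by Smads.
Tgfb1: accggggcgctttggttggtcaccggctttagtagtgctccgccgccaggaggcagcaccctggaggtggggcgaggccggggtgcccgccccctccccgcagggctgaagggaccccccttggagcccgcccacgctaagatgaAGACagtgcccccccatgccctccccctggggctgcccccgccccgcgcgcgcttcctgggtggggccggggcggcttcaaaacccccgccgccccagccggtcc
Ltbp3: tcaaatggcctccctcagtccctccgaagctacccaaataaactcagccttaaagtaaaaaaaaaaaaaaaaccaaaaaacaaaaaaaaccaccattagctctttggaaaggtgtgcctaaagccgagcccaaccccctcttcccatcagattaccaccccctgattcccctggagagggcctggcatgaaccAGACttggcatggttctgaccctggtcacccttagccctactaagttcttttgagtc
Smad3: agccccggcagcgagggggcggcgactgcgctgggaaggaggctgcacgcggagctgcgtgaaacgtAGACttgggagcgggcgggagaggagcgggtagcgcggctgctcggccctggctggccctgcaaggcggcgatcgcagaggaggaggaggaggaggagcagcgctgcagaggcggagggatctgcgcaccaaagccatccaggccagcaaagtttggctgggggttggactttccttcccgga
Msx1: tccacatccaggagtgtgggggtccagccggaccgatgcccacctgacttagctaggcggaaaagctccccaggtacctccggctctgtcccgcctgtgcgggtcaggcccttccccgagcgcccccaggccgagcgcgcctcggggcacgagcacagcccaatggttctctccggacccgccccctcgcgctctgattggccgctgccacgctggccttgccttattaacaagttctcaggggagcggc
Tgfb1, Ltbp3 and Smad3 each held 1 GTCT, Msx1 held none, and none of the 4 held GGCGCC. The windows differ in base composition, with 47.2% G or C in Ltbp3 against 75.2% in Tgfb1, 69.2% in Smad3 and 68.0% in Msx1. RefSeq start sites were matched for 28 of the 42 members, with 38 windows. On either strand, GTCT was in 30 of these windows (23 members) and in 82.9% of all 32851 windows of the same length, and GGCGCC in 9 (8 members) and in 9.59% of all. The palindrome GTCTAGAC, which holds GTCT on both strands, was in 0 of the 38 windows and in 0.167% of all. Of the 10 members with the smallest p-values described next, 7 had a window, and GGCGCC was in those of Ltbp4 and Id2. A match is a run of letters and not evidence of binding.

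The comparison asks which pathway genes differed between TMA-ARB and control tumours. No member passed the test: edgeR called 0 of 42 members at an adjusted p under 0.05, as it called 0% of the 14063 genes tested, and the members' adjusted p ran from 0.997 to 0.998. At an unadjusted p under 0.05, 8 members had lower levels under TMA-ARB (19.0% of members, against 1.66% of all genes tested) and 2 had higher levels (4.76%, against 1.59%). The 8 were the ligands Tgfb1, Tgfb3, Inhbb and Bmp7, the latent binding proteins Ltbp3 and Ltbp4, the signal transducer Smad3 and the target Id2. The 2 with higher levels were Fst, which encodes the activin-binding inhibitor follistatin, and the homeobox gene Msx1. The groups did not overlap for 2 members with lower levels, Ltbp3 and Smad3 (0.363% of all genes), and for 1 with higher levels, Msx1 (0.164%). Of the 42 members, 30 had a negative log2 fold change (71.4%, against 47.2% of all genes), and the members' median log2 fold change was -0.096, against 0.021 over all genes.

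These counts describe the list and are not a test of it. Because the list was chosen with earlier results of these data known, the choice itself may have shaped these shares. DESeq2 called 0 members (and 0.00837% of the genes it tested), with 10 at an unadjusted p under 0.05. Such a p was found for 3.46% of the 23897 genes it tested, which include genes that the edgeR filter left out. It was found for 606 of the 14063 genes of the edgeR test. Limma-voom with sample weights called 0 members, with 13 at an unadjusted p under 0.05 (9.93% of genes). Bmp7 and Id2 were not among these 13 (limma-voom unadjusted p = 0.200 and 0.0678). The 8 lower members numbered 2 without control replicate 2 (0.878% of all genes then) and 5 without TMA-ARB replicate 10 (1.12%). The median was -0.15 when control replicate 1, control replicate 4 or TMA-ARB replicate 6 was left out, -0.21 when TMA-ARB replicate 8 was, and -0.050 when control replicate 3 was.

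**Figure D1:**
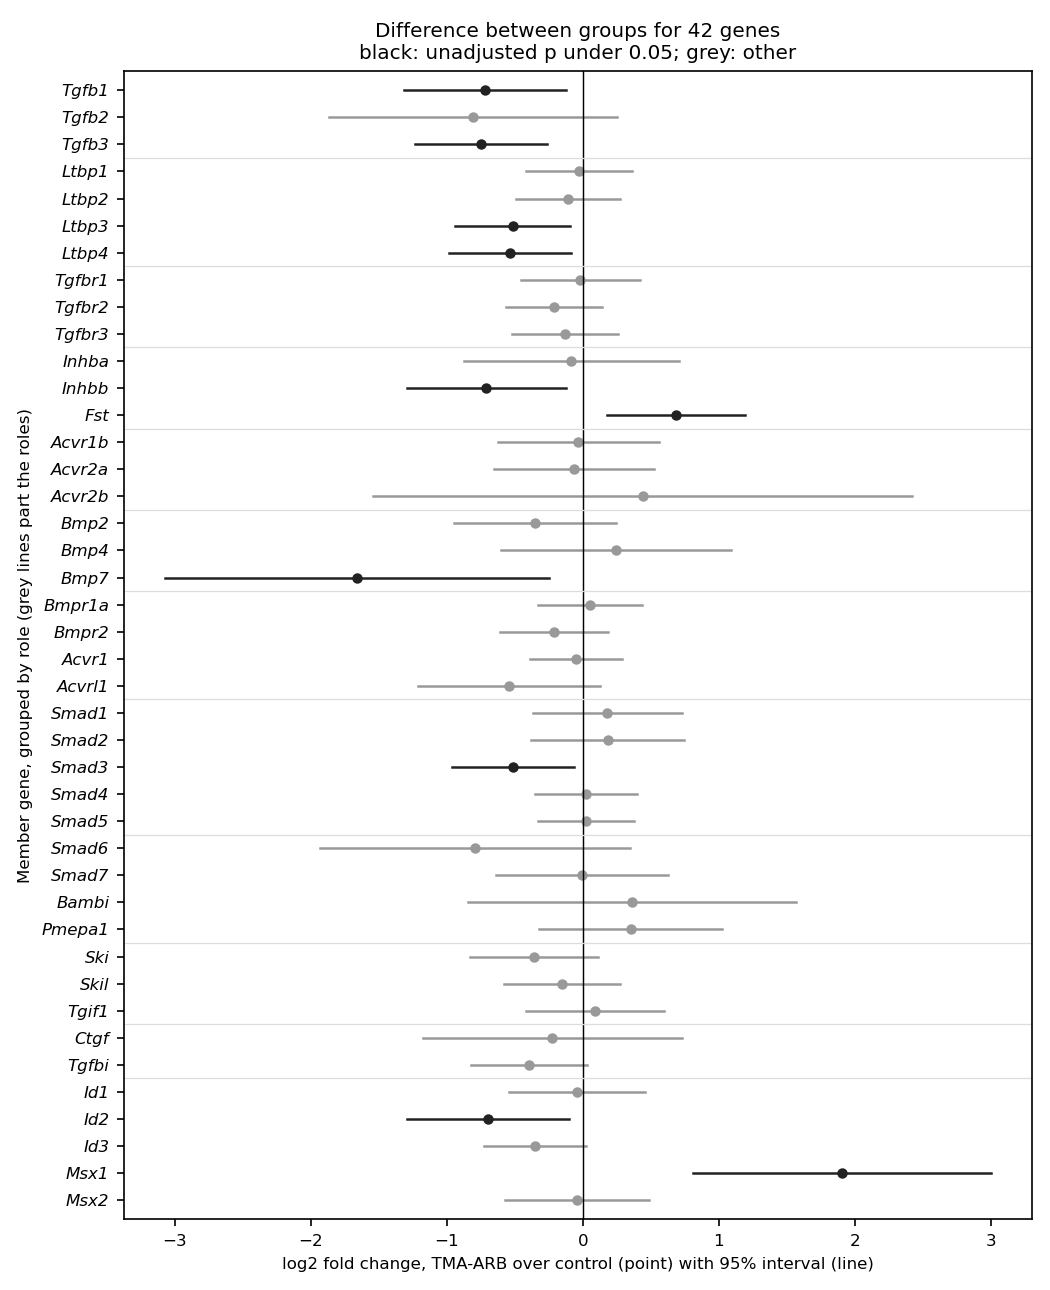
log2 fold change of TMA-ARB over control for the 42 members, parted by role; points are edgeR estimates and lines their 95% confidence intervals, black for an unadjusted p under 0.05 and grey for the others. The intervals of 10 members exclude 0 before adjustment over all genes, with Bmp7 lowest at -1.66 and Msx1 highest at 1.91.

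The TGF-beta ligands start the pathway. Tgfb1 (ENSMUSG00000002603, chromosome 7, 25687002 to 25705077), the main isoform of the ligand in most tissues, measured 99.7, 140, 65.8, 74.0 and 81.3 CPM in control replicates 1 to 5 and 86.3, 66.4, 51.4, 30.2 and 45.4 CPM in TMA-ARB replicates 6 to 10. All 5 TMA-ARB libraries lay below the control mean and the lowest 3 of all 10 were replicates 8, 9 and 10, but replicates 6 and 7 lay within the control range, so the groups overlapped. The control mean was 92.1 ± 29.5 CPM and the TMA-ARB mean 55.9 ± 21.3 CPM (SD, n = 5), a log2 fold change of -0.72 ± 0.28 (SE; 95% interval -1.31 to -0.13; edgeR unadjusted p = 0.0210). Control replicate 2 was the highest library, and without it the log2 fold change was -0.52.

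Tgfb3 (ENSMUSG00000021253, chromosome 12, 86056745 to 86079041), a second isoform of the ligand, measured 27.2, 38.6, 25.4, 24.0 and 35.5 CPM in controls and 24.8, 19.5, 16.4, 11.7 and 17.2 CPM under TMA-ARB. Only TMA-ARB replicate 6 reached the control range, and again replicates 8, 9 and 10 were the lowest 3 libraries. Its log2 fold change was -0.75 ± 0.22 (95% interval -1.23 to -0.27; edgeR unadjusted p = 0.00500). Tgfb2 (chromosome 1, 186622792 to 186705989), the isoform best known from embryonic tissue, was scarce, at 1.58, 4.94, 7.78, 3.87 and 1.82 CPM in controls and 3.88, 2.43, 1.48, 1.54 and 2.03 CPM under TMA-ARB. Control replicate 3 was the highest, the groups overlapped, and the log2 fold change of -0.81 ± 0.49 (95% interval -1.87 to 0.25) was -0.42 without that library. Opposite-strand genes share exon bases with Tgfb2 and Tgfb3, and also with Ltbp2, Fst, Acvr2a, Acvrl1, Bmp4, Bmpr1a and Ctgf. The kit was directional, but no strand setting is given for the counting, so whether the reads of such pairs were told apart is unknown.

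The mix of the 3 isoforms is a description of relative levels. Per kilobase of exon, Tgfb1 made up 59.6% to 70.4% of the summed level of the 3 isoforms in control libraries and 61.7% to 68.1% in TMA-ARB libraries, Tgfb3 28.5% to 39.0% and 29.2% to 35.5%, and Tgfb2 0.970% to 6.13% and 1.67% to 2.73%. For each isoform the TMA-ARB range of shares lay inside the control range.

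The latent TGF-beta binding proteins hold the inactive ligand in the matrix. Ltbp3 (ENSMUSG00000024940, chromosome 19, 5740904 to 5758532), which binds latent TGF-beta before it is secreted, measured 160, 227, 146, 171 and 169 CPM in controls and 115, 78.9, 138, 138 and 140 CPM under TMA-ARB. Every TMA-ARB library lay below every control library, though replicates 8, 9 and 10 came close to the lowest control. The log2 fold change was -0.52 ± 0.20 (95% interval -0.94 to -0.09; edgeR unadjusted p = 0.0201), and -0.39 without TMA-ARB replicate 7.

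Ltbp4 (ENSMUSG00000040488, chromosome 7, 27305136 to 27337692), which also organises elastic fibres, measured 50.4, 73.4, 46.0, 68.9 and 47.5 CPM in controls and 48.9, 25.9, 35.9, 44.8 and 42 CPM under TMA-ARB. All but TMA-ARB replicate 6 lay below the lowest control, and the log2 fold change was -0.54 ± 0.21 (95% interval -0.98 to -0.09; edgeR unadjusted p = 0.0229). The other 2 members of the family were near 0: Ltbp1 (chromosome 17, 75005568 to 75392512), the most abundant by CPM, measured 260, 263, 323, 404 and 343 CPM in controls and 308, 268, 324, 384 and 282 CPM under TMA-ARB. Its groups overlapped over nearly their whole range, with a log2 fold change of -0.03 ± 0.18 (95% interval -0.42 to 0.37). Ltbp2, which binds fibrillin but not TGF-beta, had -0.11 ± 0.18.

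**Figure D2:**
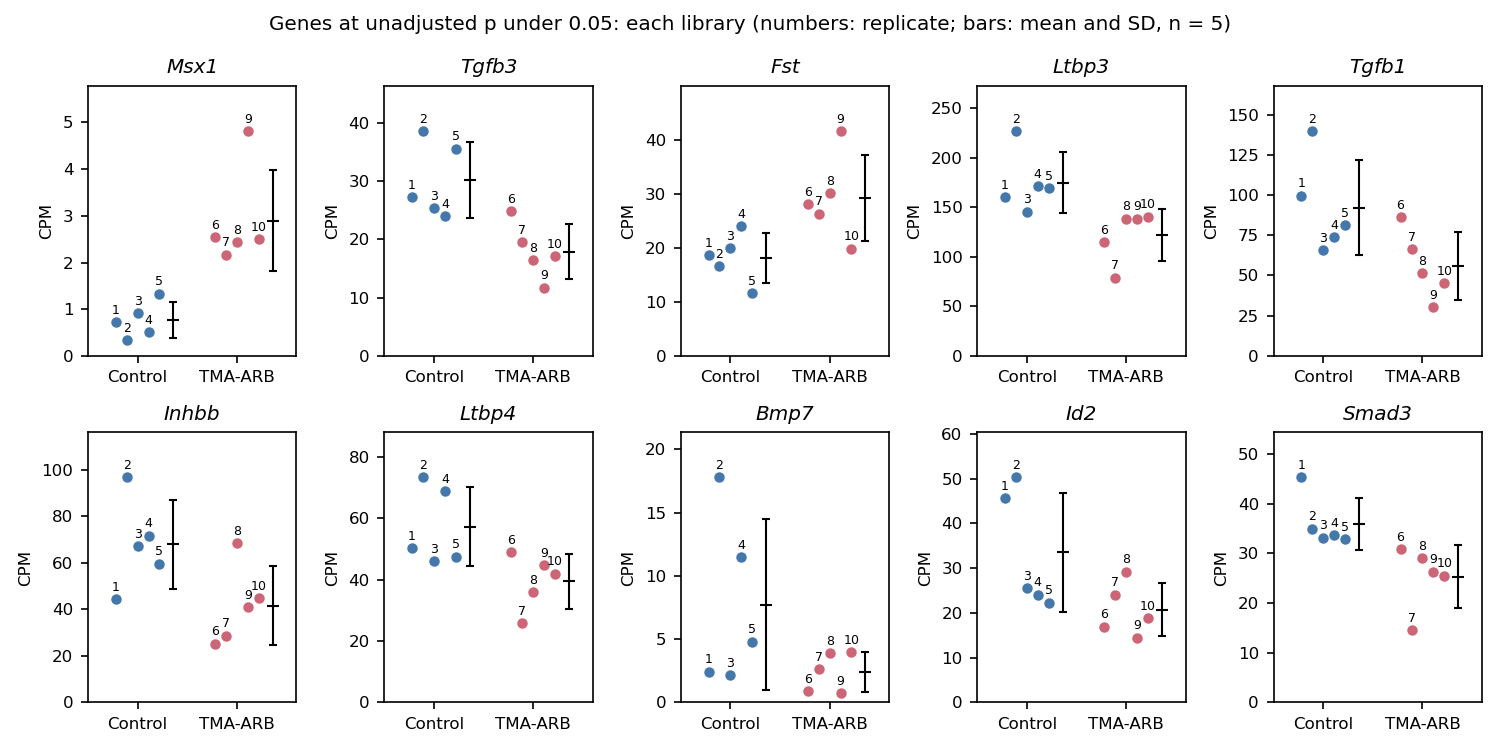
CPM of the 10 members with an edgeR unadjusted p under 0.05, each in a panel with its own linear axis from 0; points are libraries marked with their replicate number, and the bars beside them the mean ± SD of 5 libraries. The groups are apart for Ltbp3, Smad3 and Msx1 and overlap for the other 7.

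The TGF-beta receptors had intervals that spanned 0. Tgfbr2 (chromosome 9, 116084293 to 116175360), the type II receptor that binds the ligand, measured 166, 166, 174, 187 and 179 CPM in controls and 187, 154, 162, 123 and 126 CPM under TMA-ARB. The controls lay close together and 4 of 5 TMA-ARB libraries lay below all of them, while replicate 6 matched the highest, so the groups overlapped (log2 fold change -0.21 ± 0.16, 95% interval -0.56 to 0.14). Tgfbr1, the type I kinase, had -0.02 ± 0.20, and Tgfbr3, the co-receptor betaglycan, -0.13 ± 0.18.

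Among the activin genes, a ligand and its inhibitor had fold changes of opposite sign. Inhbb (ENSMUSG00000037035, chromosome 1, 119415465 to 119422248), the activin beta B subunit, measured 44.4, 96.7, 67.3, 71.6 and 59.6 CPM in controls and 25.3, 28.7, 68.3, 40.9 and 44.7 CPM under TMA-ARB. TMA-ARB replicates 8 and 10 lay inside the control range and replicates 6, 7 and 9 below it, with a log2 fold change of -0.71 ± 0.27 (95% interval -1.29 to -0.12; edgeR unadjusted p = 0.0216). Fst (ENSMUSG00000021765, chromosome 13, 114452290 to 114458951), whose product follistatin captures activins, measured 18.7, 16.5, 19.9, 24.0 and 11.6 CPM in controls and 28.1, 26.3, 30.1, 41.6 and 19.9 CPM under TMA-ARB.

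For Fst 4 of 5 TMA-ARB libraries lay above the highest control, replicate 10 lay within the control range, and replicate 9 was the highest. The log2 fold change was 0.68 ± 0.24 (95% interval 0.18 to 1.19; edgeR unadjusted p = 0.0120), and 0.53 without replicate 9. Inhba (chromosome 13, 16011851 to 16031621), the activin beta A subunit, varied widely within both groups, at 66.5, 157, 125, 64.7 and 55.5 CPM in controls and 47.5, 49.3, 142, 116 and 87.1 CPM under TMA-ARB. Its groups overlapped throughout (-0.08 ± 0.37).

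All 3 activin receptors had overlapping groups. The type I receptor Acvr1b (chromosome 15, 101174067 to 101213684) measured 19.7, 43.4, 33.1, 27.0 and 32.8 CPM in controls and 28.6, 28.9, 49.9, 16.4 and 28.5 CPM under TMA-ARB, with overlapping groups and a log2 fold change of -0.03 ± 0.28. The type II receptor Acvr2a had -0.06 ± 0.28. Acvr2b, a second type II receptor, was counted 1, 25, 41, 0 and 8 times in control replicates 1 to 5 and 8, 10, 24, 11 and 34 times in TMA-ARB replicates 6 to 10, and at these counts its log2 fold change of 0.44 ± 0.92 has an interval of -1.54 to 2.42. It was 0.11 without TMA-ARB replicate 10 and 1.33 without control replicate 3.

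The BMP ligands were all low in these tumours. Bmp7 (ENSMUSG00000008999, chromosome 2, 172868012 to 172940321), a secreted BMP known to oppose TGF-beta in kidney, measured 2.43, 17.8, 2.16, 11.5 and 4.79 CPM in controls and 0.908, 2.63, 3.91, 0.718 and 3.99 CPM under TMA-ARB. Control replicates 2 and 4 stood above the rest, while control replicates 1 and 3 lay inside the TMA-ARB range. The log2 fold change of -1.66 ± 0.65 (95% interval -3.07 to -0.25, edgeR unadjusted p = 0.0245) was -1.09 without control replicate 2. By limma-voom with sample weights it was -0.92 (limma-voom unadjusted p = 0.200).

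Bmp4 (chromosome 14, 46383520 to 46390669), made by stromal cells in many tissues, measured 5.32, 9.09, 9.81, 8.11 and 9.77 CPM in controls and 3.69, 6.64, 20.3, 12.6 and 6.82 CPM under TMA-ARB. TMA-ARB replicates 8 and 9 were above and replicate 6 below all controls (0.25 ± 0.39). Bmp2 had a control mean of 5.79 ± 1.05 CPM and a TMA-ARB mean of 4.54 ± 0.681 CPM (SD, n = 5; log2 fold change -0.35 ± 0.28).

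Of the BMP receptors, Bmpr1a (chromosome 14, 34410734 to 34503341), a type I receptor for BMP2 and BMP4, measured 85.1, 109, 82.6, 98.4 and 88.0 CPM in controls and 81.2, 114, 104, 113 and 69.3 CPM under TMA-ARB. Its TMA-ARB libraries lay on both sides of the control range (0.05 ± 0.18). The type II receptor Bmpr2 had a log2 fold change of -0.21 ± 0.18 and the type I receptor Acvr1 -0.05 ± 0.16. Acvrl1, the type I receptor ALK1 of endothelial cells, had -0.54 ± 0.31 (95% interval -1.21 to 0.12), and -0.31 without control replicate 2. The summed level of 10 endothelial markers was 309 to 507 CPM in controls, highest in control replicate 2, and 268 to 390 CPM under TMA-ARB (exact permutation p = 0.103, adjusted over 8 marker lists 0.238). With the log2 of that sum as a covariate, Acvrl1 had -0.17. The value was also -0.17 with the log2 mitochondrial share as covariate, and 0.0035 with the log2 of the summed fibroblast markers. The cause was not tested.

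The Smads carry the signal to the nucleus, and for 1 of the 5 the groups did not overlap. Smad3 (ENSMUSG00000032402, chromosome 9, 63646767 to 63757994), the DNA-binding Smad of the TGF-beta and activin branch, measured 45.3, 35.0, 33.1, 33.7 and 32.9 CPM in controls and 30.8, 14.6, 29.1, 26.3 and 25.5 CPM under TMA-ARB. All TMA-ARB libraries lay below all controls. The gap between the groups was small, from 30.8 to 32.9 CPM, and the log2 fold change was -0.51 ± 0.21 (95% interval -0.96 to -0.06; edgeR unadjusted p = 0.0283). It was -0.36 without TMA-ARB replicate 7, the lowest library, and -0.42 without control replicate 1, the highest.

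Smad2, the partner of Smad3 in the same branch, had a positive log2 fold change of 0.18 ± 0.26. Smad1 and Smad5, which serve the BMP branch, had 0.18 ± 0.26 and 0.03 ± 0.17. Smad4 (chromosome 18, 73639009 to 73703780), shared by both branches, measured 77.1, 102, 98.5, 101 and 88.0 CPM in controls and 88.1, 74.6, 108, 122 and 81.0 CPM under TMA-ARB. Its groups overlapped, with a log2 fold change of 0.02 ± 0.18 (95% interval -0.35 to 0.40).

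The feedback inhibitors, several of which are themselves Smad target genes, had 2 negative and 2 positive fold changes. At an unadjusted p under 0.05 there were 0 by edgeR or DESeq2 and 1, Pmepa1, by limma-voom (9.93% of all genes). Pmepa1 (chromosome 2, 173224458 to 173276533), a membrane protein that captures Smad2 and Smad3, measured 310, 330, 538, 447 and 404 CPM in controls and 313, 226, 573, 801 and 677 CPM under TMA-ARB. TMA-ARB replicates 8, 9 and 10 were the highest 3 of all 10 libraries and replicate 7 the lowest, so the treated libraries spanned the whole range (0.35 ± 0.31, 95% interval -0.32 to 1.02). Its log2 fold change was 0.15 without TMA-ARB replicate 9, 0.54 without replicate 7 and -0.21 with the log2 mitochondrial share as covariate. With the log2 of the summed endothelial or fibroblast markers as covariate it was -0.20 and -0.13. The inhibitory Smad7 had a control mean of 19.1 ± 6.56 CPM and a TMA-ARB mean of 19.1 ± 6.84 CPM (SD, n = 5). Its log2 fold change of -0.0035 turned positive in 12 of 22 alternative runs, among them DESeq2, limma-voom and RLE size factors. It was 0.36 with the log2 of the summed fibroblast markers as covariate and -0.32 among the libraries below a 5% mitochondrial share. Smad6, the inhibitory Smad of the BMP branch, had -0.79 ± 0.53 from 4 to 48 counts a library, and the pseudoreceptor gene Bambi had 0.36 ± 0.56, which was -0.21 without TMA-ARB replicate 7.

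The co-repressors bind Smad complexes on DNA. Tgif1 (chromosome 17, 70844205 to 70853546) measured 84.5, 130, 122, 85.5 and 117 CPM in controls and 76.8, 78.1, 174, 127 and 119 CPM under TMA-ARB. TMA-ARB replicates 6 and 7 were below all controls and replicate 8 above them (0.09 ± 0.24). Ski had -0.36 ± 0.22 and Skil, which encodes SnoN, -0.15 ± 0.20.

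Both TGF-beta targets among the members are matrix genes. Tgfbi (chromosome 13, 56609523 to 56639562), an adhesion protein of the matrix named for its induction by TGF-beta, measured 677, 602, 446, 601 and 608 CPM in controls and 591, 456, 364, 341 and 482 CPM under TMA-ARB. Control replicate 3 was the exception that made the groups overlap, since the other 4 controls lay above all TMA-ARB libraries. The log2 fold change was -0.39 ± 0.20 (95% interval -0.82 to 0.03; edgeR unadjusted p = 0.0665). Ctgf, the matrix-associated connective tissue growth factor, ranged from 79.4 to 443 CPM in controls and from 96.7 to 413 CPM under TMA-ARB (-0.22 ± 0.44).

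Of the 5 BMP targets, 4 had negative fold changes and 1 a positive one. Id2 (ENSMUSG00000020644, chromosome 12, 25093799 to 25097140), an inhibitor of bHLH transcription factors, measured 45.7, 50.3, 25.5, 24.1 and 22.3 CPM in controls and 16.9, 24.1, 29.3, 14.5 and 18.8 CPM under TMA-ARB. Control replicates 1 and 2 were far above the other controls, which the TMA-ARB libraries overlapped, and the log2 fold change of -0.70 ± 0.28 (95% interval -1.29 to -0.10; edgeR unadjusted p = 0.0248) was -0.51 without control replicate 2. Id3 (chromosome 4, 136143497 to 136145755), of the same family, measured 68.3, 65.0, 101, 75.3 and 63.0 CPM in controls and 57.8, 59.4, 60.1, 67.4 and 47.0 CPM under TMA-ARB.

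For Id3 4 of 5 TMA-ARB libraries were below all controls, and replicate 9 was within their range (-0.35 ± 0.17, 95% interval -0.73 to 0.02; -0.22 without control replicate 3, the highest). Id1, the third member of the family, had -0.04 ± 0.23. Msx1 (ENSMUSG00000048450, chromosome 5, 37820485 to 37824583), a homeobox repressor induced by BMPs in development, measured 0.723, 0.337, 0.915, 0.502 and 1.33 CPM in controls and 2.54, 2.17, 2.44, 4.82 and 2.5 CPM under TMA-ARB. Every TMA-ARB library was above every control. The log2 fold change was 1.91 ± 0.51 (95% interval 0.81 to 3.00; edgeR unadjusted p = 0.00220), but it rests on 6 to 22 counts in the control libraries and 33 to 47 in the TMA-ARB libraries. Its relative Msx2 measured 13.7 ± 4.69 and 13.3 ± 1.6 CPM (SD, n = 5 each; -0.04 ± 0.25).

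**Figure D3:**
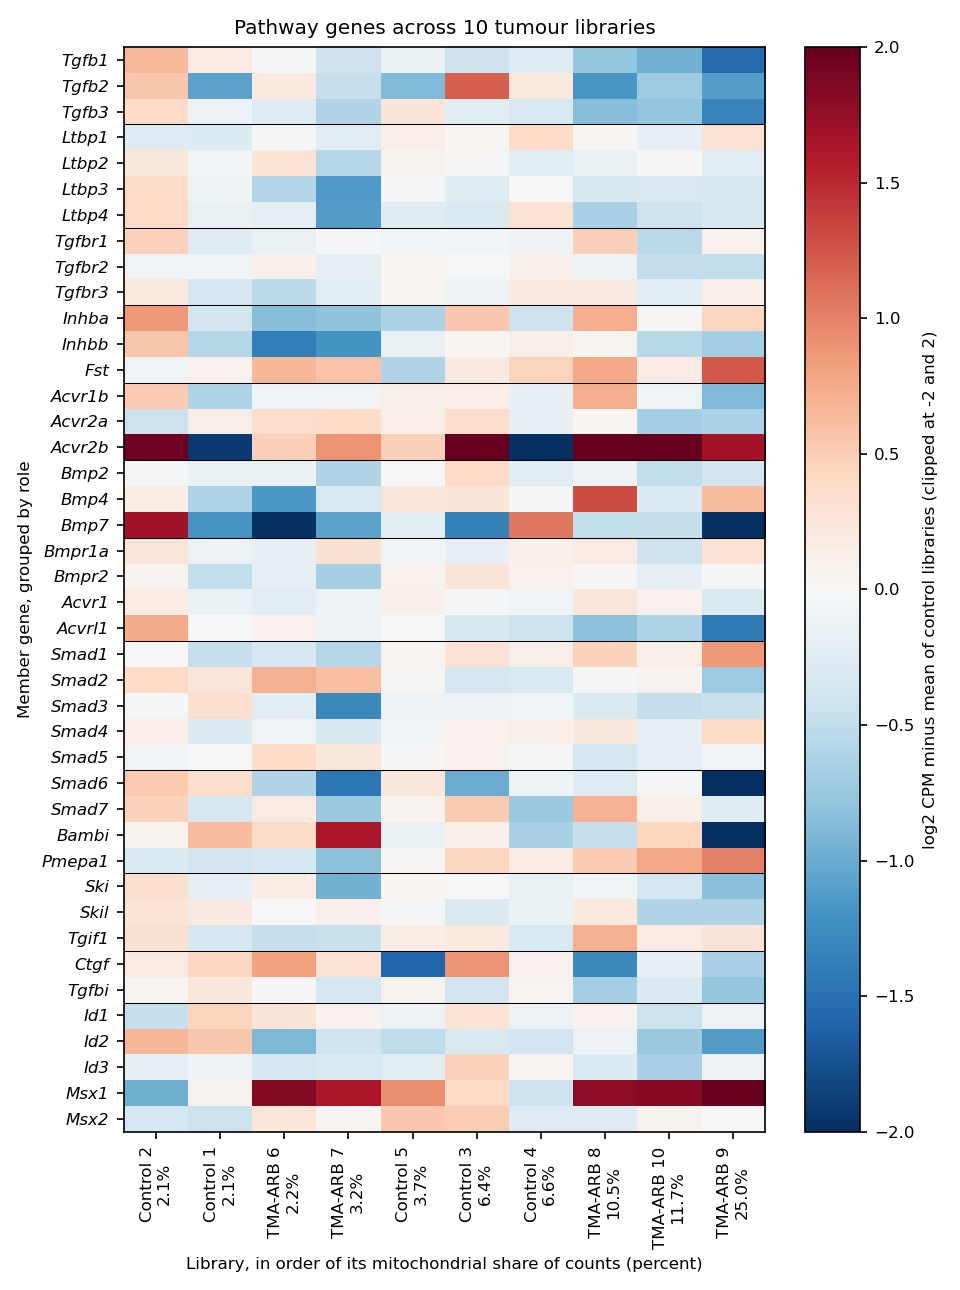
log2 CPM (0.5 added to each count) minus the mean of the control libraries for the 42 members in rows, parted by role, and the 10 libraries in columns, in order of their mitochondrial share; blue is below and red above the control mean, with colours clipped at -2 and 2. Tgfb1 and Tgfb3 are lowest in TMA-ARB replicates 8, 9 and 10, where Pmepa1 is highest, and Msx1 is above the control mean in all 5 TMA-ARB libraries.

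The level of different genes can be compared only per length of exon, as CPM per kilobase. On that scale the most abundant members in controls were the matrix gene Tgfbi at 156 ± 22.6, Ctgf at 94.9 ± 45.8 and Pmepa1 at 82.6 ± 18.9 CPM per kilobase (SD, n = 5). Id3 followed at 41.6 ± 8.65, Ltbp1 at 29.8 ± 5.61, Smad4 at 25.1 ± 2.84 and Tgfbr2 at 21.3 ± 1.10. Tgfb1 stood at 18.3 ± 5.84, Tgfb3 at 8.91 ± 1.93 and Smad3 at 6.50 ± 0.948. The scarcest were Tgfb2 at 0.690 ± 0.439, Bambi, Smad6, Msx1 at 0.246 ± 0.125 and Acvr2b.

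In this order of 42 levels, 38 of the 41 neighbouring pairs had control ranges that overlapped. The ranges do not compare the genes of a pair within each library, so an overlap does not show that their levels are equal. The 3 pairs that lay apart were those just below Pmepa1, Smad3 and Bmp2.

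**Figure D4:**
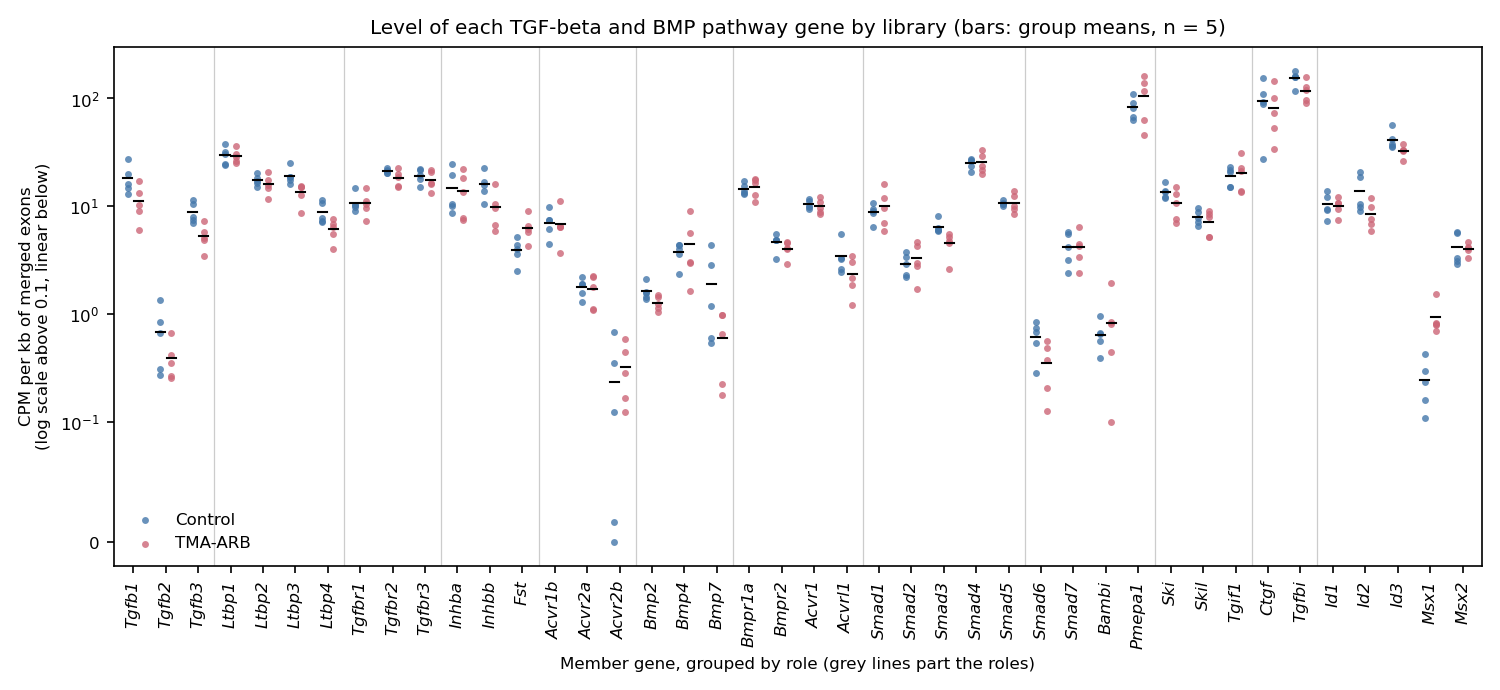
Level of the 42 members in CPM per kilobase of merged exons, parted by role; points are libraries, blue for control and red for TMA-ARB, short bars are group means (n = 5), and the axis is logarithmic above 0.1 and linear below it. Tgfbi, Ctgf and Pmepa1 lead, with control means of 156, 94.9 and 82.6 CPM per kilobase, and Msx1 and Acvr2b are the scarcest in controls.

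TMA-ARB replicates 8, 9 and 10 had the highest mitochondrial shares. They held the 3 lowest values of Tgfb1, Tgfb3, Acvrl1 and Smad5 and the 3 highest of Pmepa1. All 3 are treated libraries, and how many of all genes have such an order is not given here. This order therefore cannot be read as a link with the share or as particular to the members. Libraries were also compared on each side of a 5% share. Below it were 3 control and 2 TMA-ARB libraries, and above it 2 control and 3 TMA-ARB libraries. The 10 members with an unadjusted p under 0.05 kept their sign on both sides: Tgfb1 had a log2 fold change of -0.48 below and -0.73 above, Tgfb3 -0.61 and -0.71, Ltbp4 -0.60 and -0.50, Fst 0.81 and 0.46, and Msx1 1.56 and 2.16. The sizes were less even for Ltbp3 (-0.93 and -0.20), Smad3 (-0.72 and -0.32), Inhbb (-1.31 and -0.44), Id2 (-0.95 and -0.25) and Bmp7 (-2.25 and -1.23). These 10 members were picked for large differences in the same libraries, so their kept signs are no sign of stability. Above the 5% share the controls were at 6.37% and 6.63% and TMA-ARB replicates 8, 9 and 10 at 10.5%, 25.0% and 11.7%. On that side share and treatment cannot be told apart.

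At an unadjusted p under 0.05, 4 members were lower among the libraries below the 5% share (4.37% of all genes there) and 5 among those above it (3.51%).

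Of the 41 members tested on both sides, 19 were negative on both, 4 positive on both and 18 of opposite sign. Of these 18, 10 were negative below and positive above. The share of all genes with opposite signs is not given here, so these counts cannot be read as particular to the members. The members with opposite signs included Ctgf (0.68 below, -1.20 above), Tgfb2 (0.18 and -1.80), Pmepa1 (-0.36 and 0.46), Tgif1 (-0.52 and 0.43), Inhba (-0.95 and 0.27) and Bmp4 (-0.65 and 0.56). In a fit with a term for the difference between the sides, 0 members passed an adjusted p under 0.05 (0.0711% of all genes did), and the smallest adjusted p of a member was 0.404. At an unadjusted p under 0.05 there were 5 of the 42 members, a share close to the 10.6% of all genes. They were Tgif1, Ctgf, Tgfb2, Pmepa1 and Ltbp3.

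When the log2 of the mitochondrial share was a covariate, Tgfb1 had -0.35 and Tgfb3 -0.52, while Smad3 kept -0.51, Ltbp4 had -0.55 and Msx1 1.65. Without the 3 TMA-ARB libraries above a 10% share, Tgfb1 had -0.27, Tgfb3 -0.44, Inhbb -1.33 and Ltbp3 -0.85. The part of the mitochondrial share in these differences was not tested beyond these values.

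**Figure D5:**
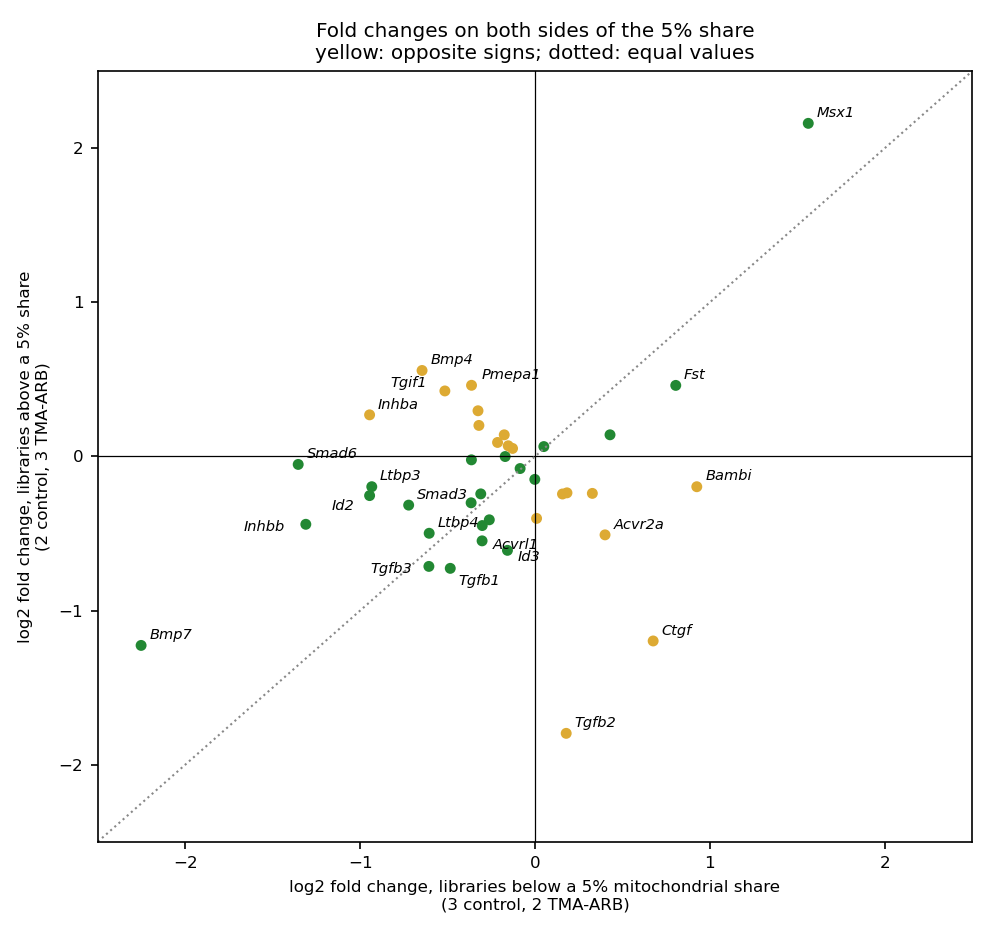
log2 fold change of TMA-ARB over control among the libraries below a 5% mitochondrial share (x axis, 3 against 2) and above it (y axis, 2 against 3) for 41 members; green points have the same sign on both sides and yellow points opposite signs. Msx1 and Fst lie at the upper right and Bmp7, Inhbb, Tgfb1 and Tgfb3 at the lower left, while Ctgf and Tgfb2 are positive below and negative above the 5% share.

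Fibroblasts are a main source of TGF-beta pathway and matrix transcripts in tumours, and their markers are given beside the members. The summed level of the 10 fibroblast markers was 3550 to 4978 CPM in controls and 2140 to 4493 CPM under TMA-ARB (exact permutation p = 0.0556, adjusted over 8 lists 0.238); 8 passed the low-count filter, 5 of them negative, none was at 0 in every library and 2 were at 0 in some. Col1a1 and Col3a1, with control means of 2399 and 1129 CPM, made up most of the sum, so that it is close to a collagen measure, while Lum, Mfap5 and Pi16 had positive log2 fold changes of 0.95, 0.91 and 0.35. With the log2 of this sum as a covariate, 0 members were lower at an unadjusted p under 0.05 (0.796% of all genes then) and 24 of 42 were negative (49.7% of all genes then). Tgfb1 then had a log2 fold change of -0.21, Tgfb3 -0.38, Ltbp3 -0.49, Smad3 -0.44 and Bmp7 -0.86, whereas Msx1 had 1.5 and Fst 0.51. Collagens are matrix genes, and the TGF-beta branch drives matrix, so this fit cannot part fibroblast content from pathway output. Among the other lists, the macrophage markers (9 of 10 in the table, 7 of 9 negative) summed to 943 to 1553 CPM in controls and 392 to 1541 CPM under TMA-ARB, and the T cell markers (10 of 10 negative) to 15.6 to 27.1 and 10.2 to 22.9 CPM. The 5 skeletal muscle markers that passed the filter were all negative, with a median log2 fold change of -1.59 and sums of 90.8 to 236 and 69.4 to 282 CPM. Of the 6 epithelial markers that passed it 5 were positive, with a median of 0.97. What part the cell make-up has in the members' differences was not tested.

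The rest of the pathway was given by 74 further genes, of which 54 passed the low-count filter. EdgeR called 0 of them, as it called 0% of all genes tested. At an unadjusted p under 0.05, 2 were lower (3.70%, against 1.66% of all genes) and 0 higher (against 1.59%). Of the 54, 32 were negative (59.3%, against 47.2% of all genes), with a median log2 fold change of -0.063 (0.021 over all genes). The 2 lower genes were both of latent TGF-beta activation, a list in which 6 of 8 were negative (75%). Itgb5, an integrin subunit that can release TGF-beta from its latent complex, measured 136, 178, 141, 155 and 137 CPM in controls and 141, 84.5, 136, 87.7 and 87.4 CPM under TMA-ARB (-0.48 ± 0.19; edgeR unadjusted p = 0.0276). Furin, the protease that cuts the TGF-beta precursor, measured 162, 166, 119, 120 and 137 CPM in controls and 130, 93.4, 115, 93.9 and 103 CPM under TMA-ARB (-0.40 ± 0.17; edgeR unadjusted p = 0.0355).

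The groups overlapped for both genes. The next by p-value were the target gene Tsc22d1 at -0.42 ± 0.20, the cell cycle inhibitor and target Cdkn1a at -0.77 ± 0.38, the BMP antagonist Nbl1 at -0.51 ± 0.26 and the endothelial co-receptor Eng at -0.39 ± 0.22. Of the 15 other target genes, 13 passed the filter and 10 of these were negative (76.9%, against 47.2% of all genes). At an unadjusted p under 0.05 there were 0 of them by edgeR, against 1.66% of all genes lower and 1.59% higher. There were 2 by DESeq2 (3.46% of the genes it tested, which include genes that the edgeR filter left out) and 1 by limma-voom (9.93%).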

How the data were processed

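The deposited table holds estimated counts of 37882 genes, made by the authors, in 10 columns, 1 for each library, and its values were already whole. The submitters' processing notes name Salmon and mm10. The version, annotation and strand setting are not given in the sources used here, and Salmon divides reads among similar transcripts. Per the labels' protocols, the libraries were poly-A selected and made with a directional kit. Groups were taken from the sample titles.

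CPM values, with the TMM-scaled library size, were computed here from the deposited counts. Groups were compared by edgeR 4.0.16 (quasi-likelihood F test, run under R 4.3.3) after TMM scaling and edgeR's default filter on expression (14063 genes left, all 42 members among them), robust dispersions and Benjamini-Hochberg adjustment over all genes at 0.05. Standard errors are the absolute log2 fold change over the square root of F. Simulated counts with known fold changes were used to test the edgeR script. DESeq2 1.42.0, voom of limma 3.58.1 with sample weights, RLE size factors, other filters, covariates, the libraries on each side of a 5% mitochondrial share and leaving out each library were tried as alternatives; leaving out the 3 TMA-ARB libraries above a 10% share was added after seeing the data. For library measures the difference in means was tested by two-sided exact permutation, whose smallest possible p is 0.00794.

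Values in every library are printed for members with an unadjusted p under 0.05, the 3 TGF-beta ligands and the member of highest mean CPM in each role; of 74 other pathway genes the 6 of smallest p are named. The members and lists were chosen with earlier results of these data known. Coordinates and exon lengths come from GENCODE mouse release M 21 on GRCm38 (mm10), promoter windows from RefSeq on GRCm38.p6, and similar transcripts were searched with BLAST+ 2.17.0. Near-identical stretches were found only between members and genes that overlap them. Not every overlap is reported here. Figures used Python 3.11.15 with matplotlib 3.10.9. No source used here mentions molecular identifiers.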

Additional observations from a re-analysis of the deposited data

Results flagged for a closer look

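Of the 84 member-by-group sets of 5 libraries, 4 had a library far from the other 4 by Dixon's test, which chance alone gives in about 1 in 20 sets. Tgfbr1 was at 95.9 CPM in control replicate 2, with the next control at 67.6 CPM, and Acvrl1 was at 23.6 CPM in the same library, with the next at 14.1 CPM. Control replicate 2 also had the highest summed endothelial and fibroblast markers, at 507 and 4978 CPM. Without it the log2 fold change of Tgfbr1 was 0.12 in place of -0.02 and that of Acvrl1 -0.31 in place of -0.54. Smad3 was at 45.3 CPM in control replicate 1, with the next at 35.0 CPM, and its log2 fold change was -0.42 without that library in place of -0.51. Msx1 was at 4.82 CPM in TMA-ARB replicate 9, the library with the highest mitochondrial share (25.0%), with the next at 2.54 CPM, and its log2 fold change was 1.66 without that library in place of 1.91.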

How the results depend on the processing

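No member was called under any alternative run. The 10 members with an unadjusted p under 0.05 had adjusted p-values from 0.191 to 1.00 under the alternatives; they were picked for differences that are large against their error, so their unchanged signs are no sign of stability. Of the 699 values of the other 32 members, 26 moved by more than the within-group SD. The 8 members lower at an unadjusted p (1.66% of all genes) numbered 4 with the endothelial covariate (0.690%), 0 with the fibroblast covariate (0.796%), 4 below (4.37%) and 5 above (3.51%) a 5% mitochondrial share, 4 without the 3 TMA-ARB libraries above a 10% share (5.40%), and 2 to 9 with 1 library left out. The 2 higher (1.59%) numbered 1 with a mean of at least 5 CPM (1.78%), with the fibroblast covariate (0.327%) and above a 5% share (3.73%), 4 without the 3 TMA-ARB libraries (5.37%), and 2 with any 1 library left out. The median log2 fold change of -0.096 was -0.26 below a 5% share, -0.28 without the 3 TMA-ARB libraries and -0.21 to -0.050 with 1 library left out, when 24 to 32 members were negative. The cause was not tested. With 5 libraries a group, low counts limit Msx1, Acvr2b, Smad6 and Bmp7. No paired analysis was possible because the replicate numbers run from 1 to 5 in controls and from 6 to 10 under TMA-ARB, with none shared.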

Other observations

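The members differed in how steady they were between libraries of a group. The median within-group SD of log2 CPM (0.5 added to each count) was 0.377 over the members and 0.437 over all genes tested. The medians are not matched for level. The steadiest were the receptors Acvr1 (0.18) and Tgfbr2 (0.19) and the transducer Smad5 (0.21). The most variable were Acvr2b (1.96), the ligand Bmp7 (1.24), the pseudoreceptor gene Bambi (1.13) and the matrix gene Ctgf (0.88). Acvr2b had 0 to 41 counts a library, Bmp7 7 to 317 and Bambi 5 to 150. At such low counts the spread may come partly from counting. Ctgf had 5.58 times as much CPM in its highest as in its lowest library, and Bmp7 24.8 times as much.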
